A study of Mus musculus with 24 samples.

Results

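Brush border peptidases and peptide uptake were followed through 8 genes of the 55335 in the count files. Mep1a, Mep1b, Anpep, Dpp4, Xpnpep2 and Pepd encode peptidases, and Slc15a1 and Slc15a2 encode peptide carriers. They were picked by symbol for what their proteins do and found in the files by their Ensembl identifiers. The choice was made with earlier results of these data known. Counts of these genes set beside shares of all genes are therefore descriptions only. RNA came from whole kidneys of 24 mice on a C57BL/6J background, 6 in each of 4 groups. The cKOm (male) and cKOf (female) mice were Pex5lox/lox/Pax8-rtTA/LC1, in which doxycycline (DOX) switches on Cre recombinase through a Pax8-driven transactivator and deletes Pex5, the receptor for import of matrix proteins into peroxisomes, along the renal tubule. Their littermates, Ctrlm and Ctrlf, were Pex5lox/lox mice, which carry the floxed alleles but neither transgene. Mice of all 4 groups received DOX for 2 weeks from 8 weeks of age, and kidneys were taken 4 weeks later, at 14 weeks of age. Non-tubular cells, in which Pex5 is not targeted, were part of each sample.

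Peptides that pass the glomerular filter are cut on the outer face of the proximal tubule brush border and the products are taken up. Meprins are zinc endopeptidases, built from the alpha subunit that Mep1a encodes and the beta subunit that Mep1b encodes, and both are abundant in mouse kidney. Aminopeptidase N (Anpep) removes single residues from the amino end, membrane-bound aminopeptidase P (Xpnpep2) cuts in front of a proline, and dipeptidyl peptidase 4 (Dpp4) releases dipeptides that end in proline or alanine. Short peptides then enter the cell with protons through PEPT1 (Slc15a1) and PEPT2 (Slc15a2), and prolidase (Pepd) splits proline-ending dipeptides in the cytosol.

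Promoters of 4 members are shown because their transcripts differed in opposite directions between the male groups, with Mep1a and Pepd lower and Dpp4 and Slc15a2 higher in cKOm kidneys. Each is the stretch of 250 bases just before the gene's start in RefSeq on GRCm38.p6, read 5′ to 3′ on the gene's strand. Capitals mark the SP1 motif GGGCGG, or its reverse complement, and the TATA box TATAAA, each searched on both strands.
Mep1a: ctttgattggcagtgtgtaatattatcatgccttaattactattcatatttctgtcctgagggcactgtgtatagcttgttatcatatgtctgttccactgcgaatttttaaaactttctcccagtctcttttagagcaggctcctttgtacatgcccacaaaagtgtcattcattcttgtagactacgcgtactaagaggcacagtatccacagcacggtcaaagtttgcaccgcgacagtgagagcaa
Pepd: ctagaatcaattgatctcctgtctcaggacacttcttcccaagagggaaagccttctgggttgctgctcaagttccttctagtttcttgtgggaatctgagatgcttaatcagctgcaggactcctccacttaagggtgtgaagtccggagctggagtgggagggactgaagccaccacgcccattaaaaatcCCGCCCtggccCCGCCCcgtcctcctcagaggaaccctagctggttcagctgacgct
Dpp4: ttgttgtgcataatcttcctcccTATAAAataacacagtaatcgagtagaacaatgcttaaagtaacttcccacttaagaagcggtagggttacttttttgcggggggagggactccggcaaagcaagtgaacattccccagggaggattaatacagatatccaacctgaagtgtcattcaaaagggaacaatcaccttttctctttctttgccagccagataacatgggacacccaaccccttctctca
Slc15a2: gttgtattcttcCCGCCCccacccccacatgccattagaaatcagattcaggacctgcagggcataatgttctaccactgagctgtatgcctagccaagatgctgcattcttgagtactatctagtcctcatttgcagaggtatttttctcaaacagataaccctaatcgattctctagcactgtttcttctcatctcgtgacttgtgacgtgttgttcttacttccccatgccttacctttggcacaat
They lie at chr17:43502774-43503023 (Mep1a, minus strand), chr7:34912157-34912406 (Pepd, plus strand), chr2:62412232-62412481 (Dpp4, minus strand) and chr16:36784963-36785212 (Slc15a2, minus strand). The promoter of Pepd held the SP1 letters at 2 places, 57 to 52 and 46 to 41 bases before its start, and that of Slc15a2 at 1 place, 238 to 233 bases before its start. The TATA letters stood in the Dpp4 promoter from 227 to 222 bases before the start. None of the motifs searched was found in the Mep1a promoter. The SP1 letters were present in 32.7% and the TATA letters in 12.4% of the 32851 promoters of this length in the same table. Of the members, 7 had a promoter in the table, and SP1 letters were found in 3 of these, Anpep being the third. Other motifs searched on both strands were found in 0 of the 7. They were those of HNF1 (GTTAAT and ATTAAC 1 base apart, in 0.00913% of all promoters, and GTTAAT alone, which lies within it, in 6.43%), HNF4 (CAAAGTCCA, 0.384%), a direct repeat of nuclear receptors (2 copies of AGGTCA 1 base apart, 0.0335%) and the androgen or glucocorticoid receptor (AGAACA and TGTTCT 3 bases apart, 0.00913%). A match or its absence describes only these letters in this window.

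Between 19376152 and 28470831 reads per kidney fell on genes, with a median of 21592602. A count of 3 was taken as the floor of detection, equal to 0.105 to 0.155 CPM (counts scaled to a common number of reads on genes), which covers counting error only. The labels give 1 kidney sample per replicate, and p values measure the spread between these mice. Pex5 itself, over all cells of the kidney together, changed by -0.31 on the log2 scale in males (edgeR adjusted p = 0.0219), and its value in females was -0.21 (edgeR adjusted p = 0.177). These values count reads over the whole gene and do not measure how complete the deletion was. The paper reports Pex5 mRNA reduced in both sexes, and PEX5 protein nearly gone in cKOm and lowered in cKOf kidneys. By electron microscopy, it found almost no peroxisomes in proximal tubules of either cKO group. All 12 proximal tubule markers were detected in each group, with sums from 10305 to 13068 CPM. Of 7 markers of the small intestine, which also makes many of the 8 peptidases and carriers, 6 stayed under 1 CPM in every kidney, at 18 counts at most, and the exception was Vil1, a brush border gene of kidney as well. In 4 of the 6 Ctrlm kidneys and 1 of the 6 cKOm kidneys, hepatocyte markers stood apart (a mean log2 CPM over 9 markers above 5), and calls among the 8 genes that were lost without these 5 kidneys are given with and without them.

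All 8 genes were detected in all 24 kidneys and passed the filter of at least 1 CPM in at least 1 kidney. Compared per kilobase of exon, meprin alpha stood far above the rest, with 513 ± 42.5 CPM per kilobase for Mep1a in Ctrlm mice (mean ± SD, n = 6). Mep1b followed with 72.7 ± 10.1, Pepd with 68.4 ± 7.93 and Anpep with 55.0 ± 12.1 CPM per kilobase in the same mice. Dpp4 reached 15.9 ± 0.873, Slc15a2 7.47 ± 1.4 and Xpnpep2 2.37 ± 0.283 CPM per kilobase. The PEPT1 transcript was the scarcest, at 0.194 ± 0.0667 CPM per kilobase (SD, n = 6), or 10 to 28 counts per Ctrlm kidney. The plot of levels by group shows each mouse.

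**Figure D1:**
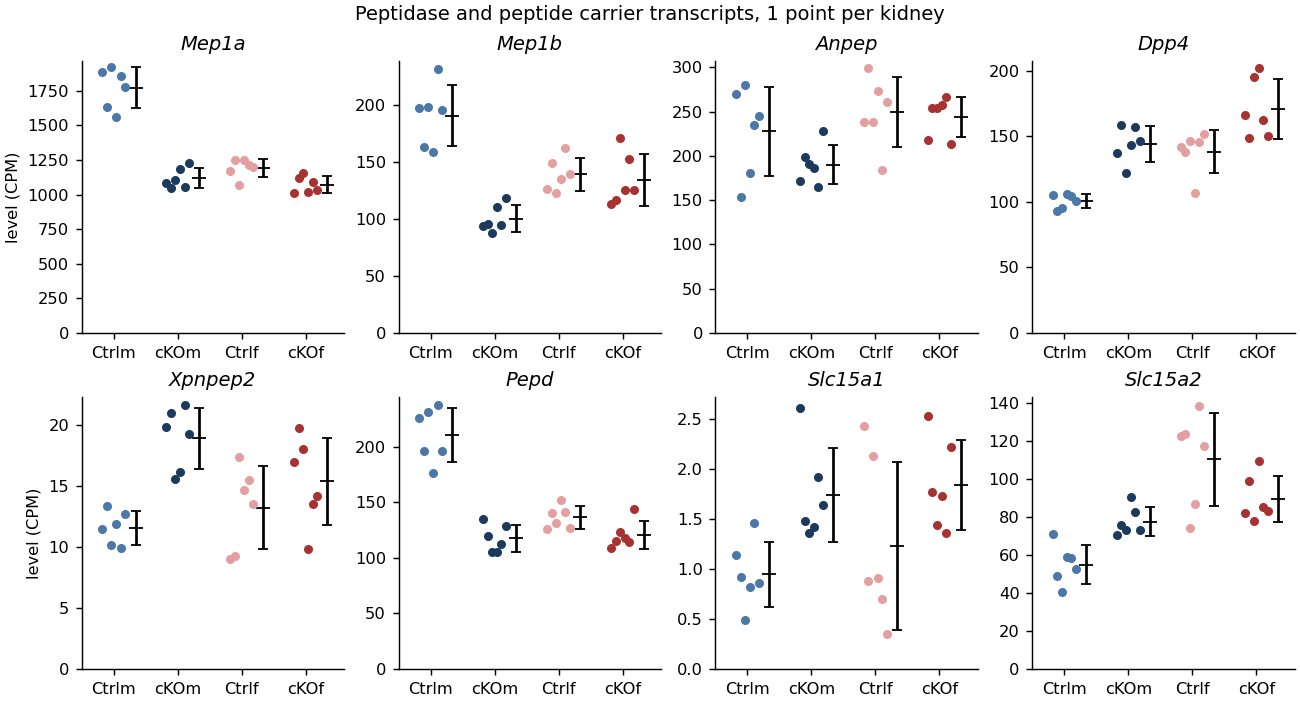
Level in CPM (vertical axes, each starting at 0 with its own scale) of the 8 transcripts in each of the 24 kidneys, by group, with black bars for mean ± SD of 6 mice. Mep1a, Mep1b and Pepd are highest in Ctrlm mice, where Mep1a lies between 1557 and 1919 CPM, while Dpp4 and Slc15a2 are lowest there.

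Male cKO kidneys held less RNA for both meprin subunits and for prolidase, and more for Dpp4, Xpnpep2 and Slc15a2, than those of their male littermates. Of the 8 genes, 6 passed an adjusted p of 0.05 between cKOm and Ctrlm mice, 3 higher and 3 lower, where 9.05% of the 16092 genes tested did (4.14% higher and 4.9% lower). For 5 of the 8, no cKOm kidney overlapped the Ctrlm range, against 7.38% of all genes. The median log2 fold change was 0.12 over the 8 genes and 0.015 over all genes. RNA of a whole kidney was measured, so fewer cells of a type and less RNA per cell cannot be told apart.

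Mep1a (meprin alpha, chr17:43474324-43502812 of GRCm38, minus strand) ranged from 1557 to 1919 CPM in Ctrlm mice, with a median of 1817, and from 1046 to 1231 in cKOm mice, with a median of 1096. Every cKOm kidney lay below every Ctrlm kidney (p = 0.00216 in a two-sided exact permutation test, the lowest possible with 6 mice against 6). The transcript fell by 36.9%, a log2 fold change of -0.66 (standard error, SE, 0.07, edgeR adjusted p = 1.5e-07). Mep1b (meprin beta, chr18:21061923-21100199, plus strand) ranged from 159 to 231 CPM in Ctrlm mice, median 196, and from 87.9 to 119 in cKOm mice, median 95.1. The groups were again apart in all mice (two-sided exact permutation test, p = 0.00216). Its log2 fold change was -0.93 (SE 0.11, edgeR adjusted p = 1.4e-06), and the transcript fell by 47.4%. Within the Ctrlm group, the kidneys Ctrlm2 and Ctrlm4 were the lowest for Mep1a and Mep1b alike.

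Of the membrane aminopeptidases, Xpnpep2 passed the threshold and Anpep did not. Anpep (aminopeptidase N, chr7:79821803-79861059, minus strand) spread from 154 to 281 CPM in Ctrlm mice, median 240, and from 165 to 228 in cKOm mice, median 189. The lowest kidney of all 12 was Ctrlm2, and the groups overlapped over the whole cKOm range. Anpep had a log2 fold change of -0.26 (SE 0.13, edgeR adjusted p = 0.310). Xpnpep2 (aminopeptidase P, chrX:48108725-48136981, plus strand) ranged from 9.91 to 13.4 CPM in Ctrlm mice, median 11.7, and from 15.6 to 21.6 in cKOm mice, median 19.5. All 6 cKOm kidneys were above all Ctrlm kidneys (two-sided exact permutation test, p = 0.00216). Xpnpep2 rose 1.63-fold, a log2 fold change of 0.71 (SE 0.16, edgeR adjusted p = 0.00592). The call was lost with the hepatocyte score as a covariate (0.54, edgeR adjusted p = 0.146) and without the 5 kidneys with high hepatocyte markers (0.75, edgeR adjusted p = 0.161).

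Dpp4 (dipeptidyl peptidase 4, chr2:62330073-62412231, minus strand) was held in a narrow range in Ctrlm mice, from 93.1 to 106 CPM with a median of 103. In cKOm mice it ranged from 122 to 159 CPM, median 145, above all Ctrlm mice (two-sided exact permutation test, p = 0.00216). Its log2 fold change was 0.52 (SE 0.09, edgeR adjusted p = 4.2e-04), and 0.45 without the 5 kidneys with high hepatocyte markers, which ended the call (edgeR adjusted p = 0.123). Dpp4 shares 232 exonic bases with the antisense gene Gm13561, which had 5 counts over all 24 kidneys, and no other of the 8 genes shared exonic bases with a neighbour.

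Pepd (prolidase, chr7:34912379-35044708, plus strand), the cytosolic member that splits proline-ending dipeptides, ranged from 177 to 238 CPM in Ctrlm mice, median 211. Its cKOm range was 105 to 135 CPM, median 116, with no overlap (two-sided exact permutation test, p = 0.00216). Pepd thus had -0.84 as its log2 fold change (SE 0.09, edgeR adjusted p = 2.1e-07). Without the 5 kidneys with high hepatocyte markers, Mep1a, Mep1b and Pepd were the 3 transcripts still past the threshold in males, with log2 fold changes of -0.75, -1.16 and -0.89 (edgeR adjusted p = 4.5e-05, 7.1e-05 and 1.3e-04). This comparison held 2 Ctrlm and 5 cKOm mice, and the share of all genes called in it is not given here.

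Of the carriers, Slc15a2 (PEPT2, chr16:36750177-36784962, minus strand), the high-affinity form, ranged from 40.5 to 70.9 CPM in Ctrlm mice, median 55.4, and from 70.5 to 90.6 in cKOm mice, median 74.5. The groups met only at Ctrlm1, the highest control, and 5 of 6 cKOm kidneys were above all Ctrlm kidneys (two-sided exact permutation test, p = 0.00433). Slc15a2 changed by 0.50 on the log2 scale (SE 0.13, edgeR adjusted p = 0.0241). The call was lost when Ctrlm2, Ctrlm3, Ctrlm6, cKOm4 or cKOm5 was left out (edgeR adjusted p = 0.0575, 0.0708, 0.0672, 0.0650 and 0.0731), with the hepatocyte covariate (0.53, edgeR adjusted p = 0.0715) and without the 5 kidneys with high hepatocyte markers (0.40, edgeR adjusted p = 0.355). Slc15a1 (PEPT1, chr14:121459621-121505252, minus strand), the low-affinity form, ranged from 0.494 to 1.46 CPM in Ctrlm mice, median 0.890, and from 1.36 to 2.61 in cKOm mice, median 1.56. In 4 of 6 cKOm kidneys it was above all Ctrlm kidneys, at 27 to 57 counts per cKOm kidney. Its log2 fold change of 0.87 had an SE of 0.35 and did not pass the threshold (edgeR adjusted p = 0.190).

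**Figure D2:**
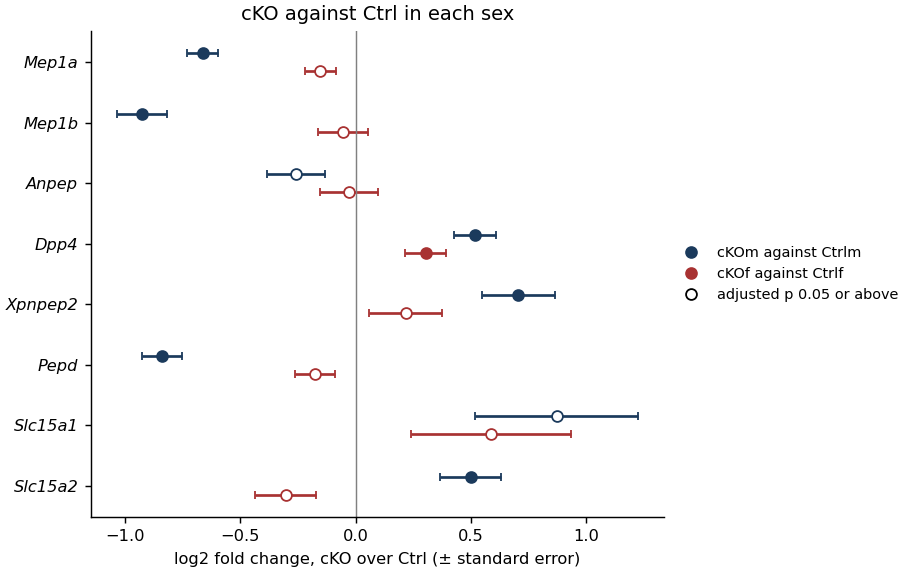
Log2 fold change of cKO over Ctrl (horizontal axis) with its edgeR standard error for each transcript, males in blue and females in red, filled where the adjusted p was under 0.05. Mep1a, Mep1b and Pepd lie far left of 0 in males (-0.66, -0.93 and -0.84) and near it in females, and Dpp4 is filled in both sexes.

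Markers of other cells and segments moved between the male groups as well. Summed proximal tubule markers were 11705 to 13030 CPM in Ctrlm and 10305 to 11487 in cKOm mice, without overlap, and 5 of 12 were lower past the threshold (2 called without the 5 kidneys with high hepatocyte markers). The 4 markers of the last proximal segment, S3, summed to 994 to 1588 CPM in Ctrlm and 190 to 348 in cKOm mice, and 3 of them were lower past the threshold (3 called without those kidneys). Much of that sum was Slc7a13 alone, with means of 817 CPM in Ctrlm and 171 CPM in cKOm mice. Hepatocyte markers summed to 101 to 957 CPM in Ctrlm and 131 to 525 in cKOm mice, with 1 of 9 higher and 2 lower past the threshold (0 called without those kidneys). Tubular injury markers summed to 528 to 1132 and 903 to 1356 CPM, with 1 of 5 higher (0 called without those kidneys). Their median log2 fold change was -0.36, so the higher sums do not stand for most of the 5. Thick limb and distal markers summed to 6016 to 8276 CPM in Ctrlm and 8311 to 9370 in cKOm mice, with 3 of 12 higher and 1 lower (1 called without those kidneys). Immune markers summed to 84.0 to 134 CPM in Ctrlm and 67.1 to 96.9 in cKOm mice, with 1 of 8 tested lower (0 called without those kidneys). Podocyte and endothelial markers (699 to 862 and 756 to 820 CPM, 0 of 8 called) and adipocyte markers (0.365 to 16.4 and 1.38 to 27.9 CPM, 0 of 3 called) overlapped. The part of these cells and segments in the changes of the peptidases and carriers was not tested, apart from the hepatocyte markers, for which values without the 5 kidneys are given above. Within the Ctrlm group, Ctrlm5 and Ctrlm6 were the kidneys with low hepatocyte markers, and Mep1a was 1853 and 1780 CPM there, inside the range of the other 4. Mep1b was 231 CPM in Ctrlm5, where the other 4 reached 198 at most, Pepd was 238 against at most 232, and Xpnpep2 was 9.91 against at least 10.1. In Ctrlm6, Mep1b was 195, Pepd 196 and Xpnpep2 12.7 CPM, each inside the range of the other 4.

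**Figure D3:**
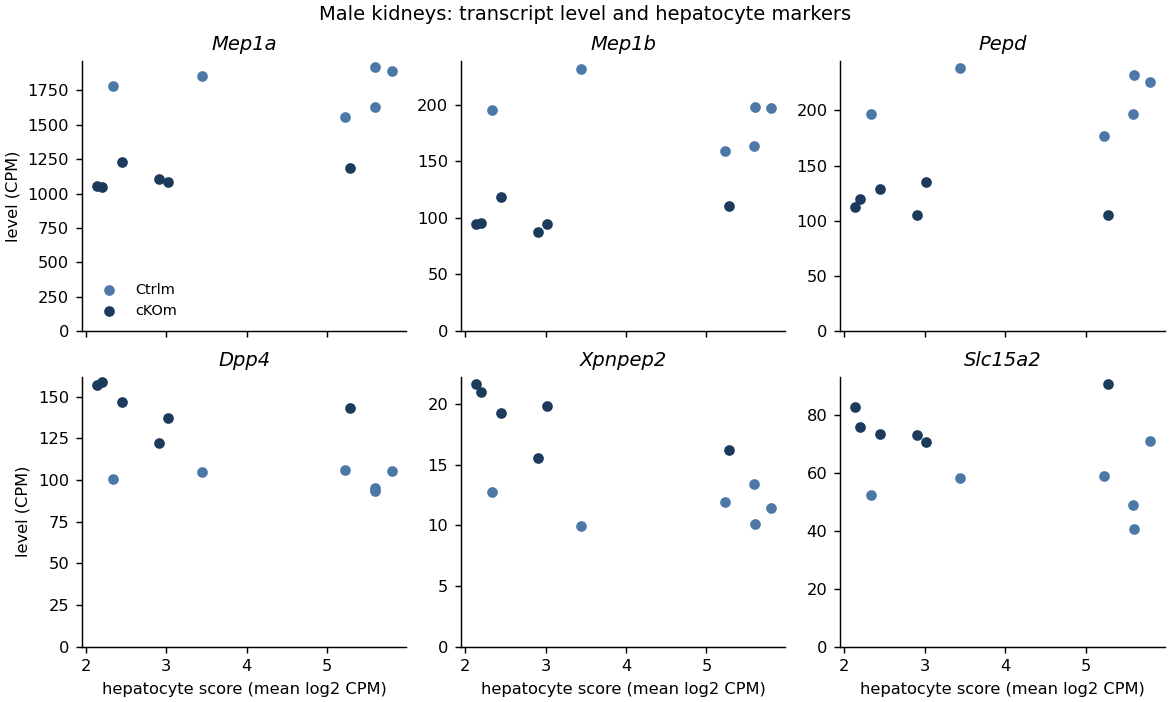
Level in CPM (vertical axes, starting at 0) against the hepatocyte score, the mean log2 CPM of 9 hepatocyte markers (horizontal axis), in the 12 male kidneys, for the 6 transcripts past the threshold in males. The 4 Ctrlm kidneys on the right overlap in level with the other Ctrlm kidneys for all 6 transcripts. The single cKOm kidney with a score above 5, cKOm4, lies with its own group, and for Slc15a2 it is the highest of that group.

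In females, Dpp4 was the 1 of 8 transcripts past the threshold between cKOf and Ctrlf mice, where 0.851% of all genes were called (0.391% higher). The ranges overlapped for all 8 genes, against 0.559% of genes without overlap. The median log2 fold change was -0.043 over the 8 genes and 0.0019 over all genes. An unadjusted p under 0.05 was found for 4 of the 8, and the share of all genes at that cutoff is not given. Dpp4 ranged from 106 to 152 CPM in Ctrlf mice, median 144, and from 148 to 202 in cKOf mice, median 164. In 4 of 6 cKOf kidneys it was above all Ctrlf kidneys (two-sided exact permutation test, p = 0.00649). Its log2 fold change was 0.30 (SE 0.09, edgeR adjusted p = 0.0473), which stayed past the threshold in 8 of 34 alternatives, with adjusted p values from 0.0241 to 0.275. Without Ctrlf4, the lowest control, the log2 fold change was 0.23 (edgeR adjusted p = 0.113). Leaving out the 5 male kidneys with high hepatocyte markers, which share the fit, gave 0.30 (edgeR adjusted p = 0.139).

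Mep1a ranged from 1072 to 1247 CPM in Ctrlf mice, median 1207, and from 1012 to 1158 in cKOf mice, median 1062. In 3 of 6 cKOf kidneys it was below all Ctrlf kidneys, but the log2 fold change of -0.15 did not pass the threshold (SE 0.07, edgeR adjusted p = 0.231). Mep1b spread from 123 to 162 CPM in Ctrlf and from 113 to 171 in cKOf mice, with medians of 137 and 125. Both the lowest and the highest Mep1b level of the 12 female kidneys were found in cKOf mice, and its log2 fold change was -0.055 (SE 0.11, edgeR adjusted p = 0.874). Pepd ranged from 126 to 153 CPM in Ctrlf mice, median 136, and from 109 to 144 in cKOf mice, median 117. Apart from cKOf6, every cKOf kidney was below the Ctrlf range, and the log2 fold change of Pepd was -0.18 (SE 0.09, edgeR adjusted p = 0.310). Anpep overlapped nearly throughout, at 184 to 300 CPM in Ctrlf and 213 to 267 in cKOf mice, with a log2 fold change of -0.030 (SE 0.13, edgeR adjusted p = 0.950).

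The remaining transcripts in females were marked by spread among controls. Xpnpep2 ranged from 9.0 to 17.4 CPM in Ctrlf and from 9.85 to 19.7 in cKOf mice, with a log2 fold change of 0.22 (SE 0.16, edgeR adjusted p = 0.567). Slc15a2 was 74.3 to 138 CPM in Ctrlf mice, median 120, and 78 to 110 in cKOf mice, median 84.3. In 4 of the 6 Ctrlf kidneys Slc15a2 was above all cKOf kidneys, while Ctrlf3 was the lowest of the 12 female kidneys, and its log2 fold change of -0.30 did not pass the threshold (SE 0.13, edgeR adjusted p = 0.237). Slc15a1 ranged from 0.347 to 2.43 CPM in Ctrlf and from 1.36 to 2.53 in cKOf mice, on 8 to 52 counts per kidney, with a log2 fold change of 0.59 (SE 0.35, edgeR adjusted p = 0.441).

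Whether the genotype effect differed between the sexes was tested as an interaction, in which 2.31% of all genes were called (0.82% higher and 1.49% lower). The paper found some full-length Pex5 mRNA and PEX5 protein left in cKOf kidneys, and proposes incomplete excision there. Sex and the extent of deletion therefore cannot be told apart in this test. The effect in males minus that in females was past the threshold for 4 of the 8 genes. It was -0.87 for Mep1b (SE 0.15, edgeR adjusted p = 9.8e-04), -0.66 for Pepd (SE 0.12, edgeR adjusted p = 0.00171) and -0.51 for Mep1a (SE 0.09, edgeR adjusted p = 0.00184). Slc15a2 was the 1 gene of the 4 with the opposite sign, at 0.80 (SE 0.19, edgeR adjusted p = 0.0166), and without the 5 kidneys with high hepatocyte markers it did not pass (0.71, edgeR adjusted p = 0.127). Dpp4, for which each sex had a rise past the threshold, had an interaction of 0.21 (edgeR adjusted p = 0.491). For Anpep, Xpnpep2 and Slc15a1 the interaction was -0.23, 0.49 and 0.28 (edgeR adjusted p = 0.619, 0.336 and 0.849).

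Control kidneys of males held more meprin and prolidase RNA than those of females, and less Dpp4 and Slc15a2 RNA. The Ctrlm kidneys enter both this comparison and the one of genotype, so the values of the comparisons are set side by side without a test of their overlap. Between Ctrlm and Ctrlf mice, 5 of 8 genes passed the threshold, 3 higher and 2 lower in males, where 15.7% of all genes did (8.17% higher and 7.48% lower), and 4 of 8 did not overlap, against 7.35% of all genes. Mep1a was higher in Ctrlm mice by 0.57 on the log2 scale (SE 0.07, edgeR adjusted p = 3.8e-07), against its change of -0.66 in cKOm mice. Pepd was higher by 0.63 (SE 0.09, edgeR adjusted p = 5.5e-06), against -0.84 in cKOm mice. Mep1b was higher by 0.45 (SE 0.11, edgeR adjusted p = 0.00424), against -0.93, and 5 of 6 Ctrlm kidneys were above all Ctrlf kidneys.

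On the other side, Slc15a2 was lower in Ctrlm than in Ctrlf mice by a log2 fold change of -1.01 (SE 0.13, edgeR adjusted p = 3.3e-06), against 0.50 in cKOm mice. Dpp4 had -0.46 (SE 0.09, edgeR adjusted p = 7.1e-04), against 0.52, and without the 5 kidneys with high hepatocyte markers its sex difference was -0.41 (edgeR adjusted p = 0.0818). Anpep, Xpnpep2 and Slc15a1 had log2 fold changes of -0.13, -0.19 and -0.37 between the control sexes and did not pass the threshold (edgeR adjusted p = 0.574, 0.510 and 0.587). Markers moved between the control sexes as well. Hepatocyte markers were higher in Ctrlm mice, all 9 past the threshold, and 0 of 9 were called without the 5 kidneys. S3 markers summed to 994 to 1588 CPM in Ctrlm and 283 to 434 in Ctrlf mice (2 of 4 higher and 1 lower in males), and thick limb and distal markers to 6016 to 8276 and 9243 to 10312 CPM (7 of 12 lower). Of the S3 sums, Slc7a13 alone had a mean of 817 CPM in Ctrlm and 2.2 CPM in Ctrlf mice. Injury markers summed to 528 to 1132 CPM in Ctrlm and 1340 to 1534 in Ctrlf mice (1 of 5 lower), and 3 of 8 podocyte and endothelial markers were lower. Of 12 proximal tubule markers 3 were higher and 2 lower, with overlapping sums. Without the 5 kidneys, 2 S3 markers, 3 thick limb and distal, 1 injury, 1 podocyte and endothelial and 2 proximal tubule markers were called between the controls. The part of all these markers in the sex differences was not tested.

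Between cKOm and cKOf mice, 1 of the 8 genes passed the threshold, where 9.72% of all genes did (4.92% lower), and 0 of the 8 were without overlap, against 6.77% of all genes. At an unadjusted p under 0.05, 3 of the 8 differed, and the share of all genes at that cutoff is not given. The gene called was Mep1b, lower in cKOm mice by a log2 fold change of -0.42 (SE 0.11, edgeR adjusted p = 0.00857), the opposite direction to that between the controls. Mep1a and Pepd had 0.062 and -0.036 (edgeR adjusted p = 0.628 and 0.854). Anpep, Dpp4 and Slc15a2 had values on the lower side without passing, at -0.36, -0.24 and -0.21 (edgeR adjusted p = 0.0575, 0.0751 and 0.361), and Anpep passed it in 8 of 34 alternatives.

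**Figure D4:**
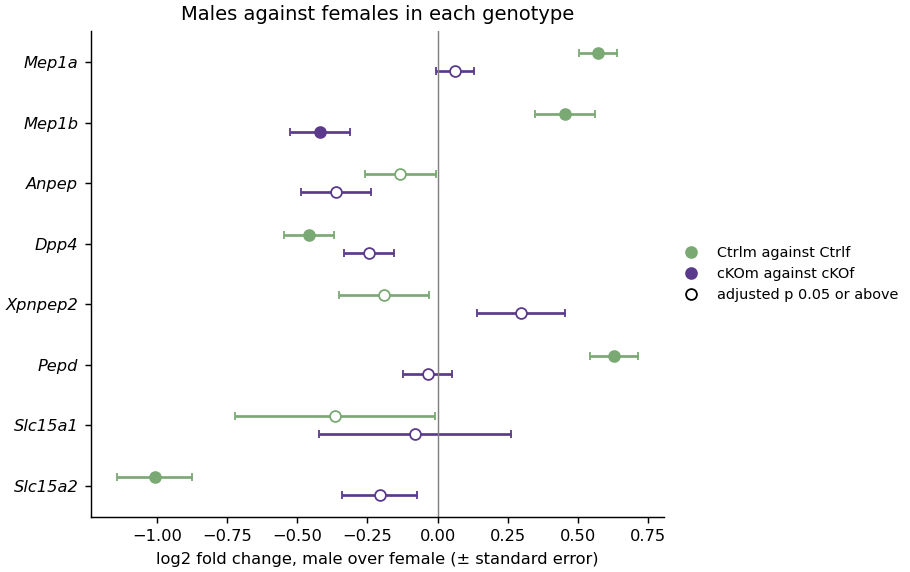
Log2 fold change of males over females (horizontal axis) with its edgeR standard error for each transcript, controls in green and cKO mice in purple, filled where the adjusted p was under 0.05. Mep1a and Pepd are right of 0 in controls (0.57 and 0.63) and near 0 in cKO mice, and Slc15a2 is left of 0 at -1.01 in controls.

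The order of group means summarised these comparisons for each gene. Mep1a and Pepd were highest in Ctrlm mice, and the ranges of the other 3 groups overlapped for both. Mep1b went from Ctrlm (mean 191 CPM) over Ctrlf (139) and cKOf (134) to cKOm (100.3), with Ctrlf and cKOf not apart beyond their spread. Slc15a2 was highest in Ctrlf mice (mean 111 CPM), followed by cKOf (89.6), cKOm (77.6) and Ctrlm (55.0). Dpp4 was lowest in Ctrlm mice (mean 101 CPM), and Ctrlf (138), cKOm (144) and cKOf (171) followed.

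Ratios within a kidney do not depend on the scaling between kidneys. The Mep1a over Mep1b ratio, in reads per kilobase, was 6.09 to 7.59 in Ctrlm mice, median 7.32, and 7.90 to 9.56 in cKOm mice, median 8.40, so meprin beta fell more than meprin alpha in males and the groups did not overlap. In females it was 5.70 to 7.03 in Ctrlf and 5.15 to 7.29 in cKOf mice. The Dpp4 over Pepd ratio was 0.200 to 0.292 in Ctrlm and 0.497 to 0.680 in cKOm mice, and it was 0.340 to 0.586 in Ctrlf and 0.510 to 0.835 in cKOf mice. PEPT2 transcripts exceeded PEPT1 transcripts in every kidney, at 26.5 to 54.4 times as many per kilobase in Ctrlm and 17.9 to 42.4 in cKOm mice.

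Other genes of peptide breakdown and uptake were counted from lists. The shares of all genes called, for reading these counts, were 9.05% in males, 0.851% in females, 15.7% between the controls and 2.31% for the interaction. For counts without the 5 kidneys with high hepatocyte markers, a comparison with fewer mice, no such share is given. None is given for counts at an unadjusted p under 0.05 either. Among 15 other ectopeptidases, 4 passed the threshold in males, 1 higher and 3 lower, with a list median of -0.078, and 2 passed without the 5 kidneys with high hepatocyte markers. Ggt1 (gamma-glutamyltransferase, which opens glutathione) and Ace (angiotensin converting enzyme) had log2 fold changes of -1.12 and -0.77 (edgeR adjusted p = 4.8e-07 and 8.6e-05), and Mme (neprilysin) had 0.74 (edgeR adjusted p = 0.00726). Prcp, which falls outside the rule for named genes and was picked after its value was seen, had -0.34 (edgeR adjusted p = 0.0416). In females 1 of the 15 passed, Folh1 (glutamate carboxypeptidase), at -0.51 (edgeR adjusted p = 0.0429), and 0 passed without the 5 kidneys. The interaction was past the threshold for Ace and Ggt1, and the cKO over Ctrl log2 fold change of each was lower in males than in females.

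Among peptidases inside the cell, those called in males were all lower, as Pepd was. Of 18 listed beside Pepd, 4 were lower and 0 higher in males past the threshold, with a list median of -0.041, and 4 passed without those 5 kidneys. Cndp2 (a cytosolic dipeptidase) was at 841 ± 199 CPM (SD, n = 6) in Ctrlm and at 283 ± 15 CPM in cKOm mice, a change of -1.57 on the log2 scale (SE 0.12, edgeR adjusted p = 3.2e-09). Lap3 (leucine aminopeptidase) had -1.04, Apeh (acylpeptide hydrolase) -0.71 and Blmh (bleomycin hydrolase), which was picked after its value was seen, -0.56 (edgeR adjusted p = 2.6e-08, 3.8e-06 and 4.4e-05). In females, 0 of the 18 passed in edgeR, DESeq2 and limma-voom, and 1 had an unadjusted p under 0.05. The interaction was past the threshold for the same 4 genes, and the log2 fold change of each was lower in males than in females. Between Ctrlm and Ctrlf mice, 6 of the 18 passed, 5 of them higher in males (4 passed without those 5 kidneys), Cndp2 by 2.17 and Lap3 by 1.26 on the log2 scale (edgeR adjusted p = 5.3e-13 and 1.2e-10).

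Of 6 other peptide carriers and their partners, 5 were tested and 1 passed in males. This was Slc9a3r1 (NHERF1, a scaffold of brush border carriers) at -0.41 (SE 0.10, edgeR adjusted p = 0.0159), which was not called without the 5 kidneys with high hepatocyte markers, and 0 of 5 passed in females in edgeR, DESeq2 and limma-voom, with 0 at an unadjusted p under 0.05. Of 11 brush border amino acid carriers, 6 passed in males, 1 higher and 5 lower, with a list median of -0.25, and 3 passed without those 5 kidneys. Slc7a13, a carrier of the S3 segment, was at 817 ± 121 CPM (SD, n = 6) in Ctrlm and 171 ± 36.9 CPM in cKOm mice, a change of -2.26 on the log2 scale (SE 0.36, edgeR adjusted p = 1.2e-04). Slc6a20a, which carries proline and other imino acids, had 0.83 (edgeR adjusted p = 1.7e-04) and Cltrn (collectrin, a carrier partner) -0.57 (edgeR adjusted p = 0.00274). In females 0 of the 11 passed in edgeR, 0 in limma-voom and 1 in DESeq2, with 2 at an unadjusted p under 0.05.

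Of 12 structural genes of the brush border, 1 was called in males, a share near the 9.05% of all genes. This was Cdhr2 (a protocadherin that links the tips of microvilli), at 0.46 (SE 0.09, edgeR adjusted p = 0.00189), and 5 of the 12 had an unadjusted p under 0.05, with a list median of 0.12. In females 0 of the 12 passed in edgeR, DESeq2 and limma-voom, with 1 at an unadjusted p under 0.05.

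**Figure D5:**
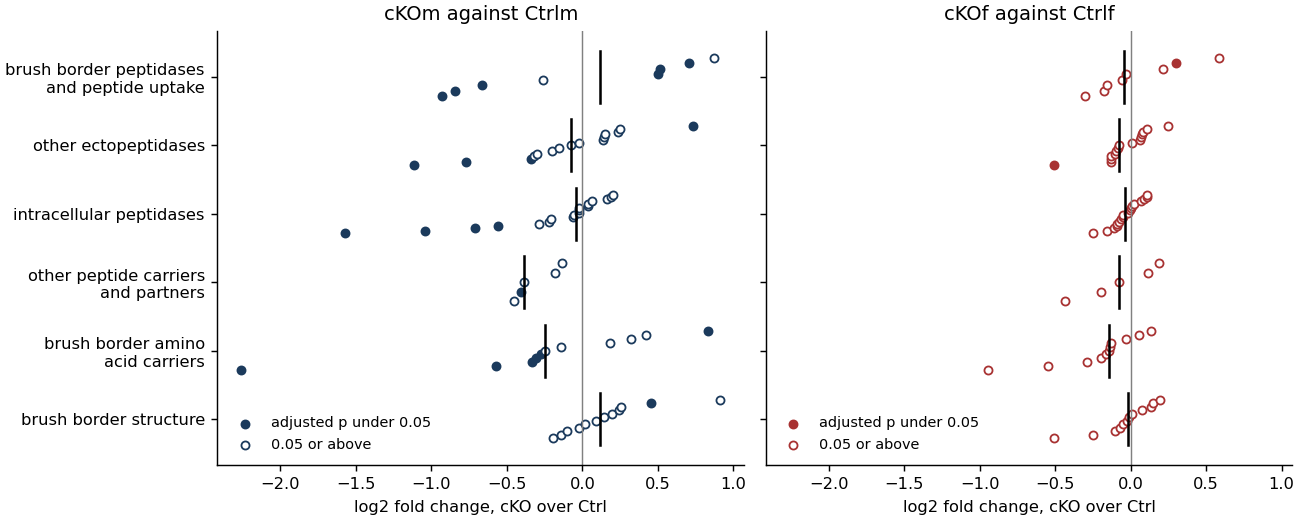
Log2 fold change of cKO over Ctrl (horizontal axes) for each tested gene of 6 lists, 1 point per gene, filled where the adjusted p was under 0.05, with a black line at the list median, for males (left) and females (right). Intracellular peptidases called in males all lie left of 0, down to -1.57 for Cndp2, and the brush border peptidases and peptide carriers have 3 filled points on each side.

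The 3 genes most like each member, of which those reported are named, were found by the Pearson correlation of log2 CPM over the 24 kidneys, among 14071 genes. These correlations include the differences between the 4 groups, so that of the deviations from group means is given second, and both are descriptions. Mep1a was close to Fhl1 (0.94 and 0.40) and Pepd (0.93 and 0.44), and Pepd in turn like Fhl1 (0.94 and 0.50), Ttc39c (0.94 and 0.66) and Pecr (0.94 and 0.58). Mep1b was most like Gm853 (0.85 and 0.66), Defb29 (0.85 and 0.49) and Tspan13 (0.84 and 0.45). Anpep followed Lrpap1 (0.84 and 0.79), Acadm (0.82 and 0.74) and Nccrp1 (0.78 and 0.66), with little drop once group means were removed. Dpp4 followed Spc25 (0.89 and 0.41), Tppp (0.88 and 0.64) and Acot3, whose correlation with Dpp4 was 0.87 over all kidneys and 0.08 for the deviations. Xpnpep2 was close to Crtc1 (0.81 and 0.63) and Tm7sf2 (0.76 and 0.56). Slc15a1 was nearest to Wdsub1 (0.70 and 0.56), Acaa1b (0.69 and 0.44) and the imino acid carrier Slc6a20a (0.68 and 0.56). Slc15a2 was nearest to Maats1 (0.83 and 0.41), Cdh6 (0.82 and 0.47) and Ror2 (0.82 and 0.49).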

How the data were processed

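RNA of 24 whole kidneys was sequenced from stranded mRNA libraries. The authors deposited raw counts of reads per gene, made with cutadapt 1.8, STAR 2.5.3a and HTSeq 0.9.1 on GRCm38, per the labels; the strand setting of the counting was not given in the sources used here. The 5 closing lines of each file (34.0 to 41.5% of its reads, on no gene, on several genes or mapped at several places) were set aside. Names and positions came from GENCODE. The filter kept genes that reached 1 CPM in any kidney. They were normalized by TMM and fitted in 1 model of 4 groups by the quasi-likelihood test of edgeR 4.0.16 in R 4.3.3. P values were adjusted by Benjamini-Hochberg over the male and female comparisons together, likewise over both sex comparisons, and over all genes for the interaction. The threshold was 0.05, and log2 CPM used a prior count of 2. Exact permutation tests covered 924 arrangements of log2 CPM, in 32 tests without adjustment. Kidneys of 1 group differed by more than counting noise in all 60 pairs (chi-square per degree of freedom at least 9.93). Same-numbered kidneys came from different mice and were not treated as paired. Alternatives were limma-voom (limma 3.58.1), DESeq2 1.42.0, RLE normalization, other filters, only the groups compared, separate adjustment, a replicate block, a hepatocyte covariate and each kidney left out. The members and lists were chosen with earlier results of these data known. List genes are named if they were among the 3 largest changes past the threshold in a sex. The procedure was tested on simulated data. The labels give ZT3 for experiments and ZT9 for tissue collection. Of the genes found by correlation with the members, 2 are not reported here.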

Additional observations from a re-analysis of the deposited data

Results flagged for a closer look

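Among 32 groups of 6 kidneys examined (8 genes in 4 groups), Dpp4 in Ctrlf4 stood apart from its group. It was at 106 CPM, and the next lowest Ctrlf kidney was at 138 CPM, a gap of 0.689 of the whole range of the group. Chance alone would single out about 1 in 20 such groups. Without this kidney the female change of Dpp4 was 0.23 on the log2 scale in place of 0.30, and it no longer passed the threshold (edgeR adjusted p = 0.113).

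The genotype effect differed between males and females, by the edgeR test of the interaction, for 4 of the 8 genes. Sex cannot be told apart here from the extent of Pex5 deletion, which the paper proposes was incomplete in cKOf mice. The male minus the female log2 fold change was -0.51 for Mep1a, -0.87 for Mep1b, -0.66 for Pepd and 0.80 for Slc15a2 (adjusted p = 0.00184, 9.8e-04, 0.00171 and 0.0166). For the first 3 genes both sexes had a negative value and the male one was the larger. Slc15a2 had 0.50 in males and -0.30 in females, of which the female value did not pass the threshold.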

How the results depend on the processing

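Of 392 log2 fold changes recomputed under alternatives other than leaving out 1 kidney, 373 kept their direction and side of the threshold, 14 lost a call, 4 gained one and 1 changed sign. Without the 5 kidneys with high hepatocyte markers, an alternative chosen after seeing the data that leaves 2 Ctrlm mice, the number of genes called in males fell from 6 to 3 (Mep1a, Mep1b and Pepd). The share of all genes called there is not given, so the fall is not read as a trait of these genes. With the hepatocyte covariate, calls among all genes in males fell from 1456 to 860. In females the single call, Dpp4, went to 0 with RLE normalization, every gene with a count, only the groups compared, adjustment within each comparison, the hepatocyte covariate and without those 5 kidneys. Between cKOm and cKOf mice, 2 genes in place of 1 were called with DESeq2, with at least 1 CPM in at least 6 kidneys, with only the groups compared and without those 5 kidneys, the second being Anpep. With each kidney left out, 5 to 6 genes were called in males, 0 to 1 in females, 1 to 3 between cKOm and cKOf, 5 between the controls and 4 for the interaction. Apart from the male calls with the hepatocyte covariate, the number of all genes called in these settings is not given. The counts of members are therefore not read as a trait of these genes, and the cause of these shifts was not tested. Signs turned in values that had not passed the threshold, from -0.19 to 0.021 for Xpnpep2 between the controls with the hepatocyte covariate. With 1 kidney left out, Anpep in females ran from -0.10 to 0.030, Pepd between cKOm and cKOf from -0.078 to 0.021, Slc15a1 there from -0.23 to 0.031 and its interaction from -0.026 to 0.48. Low counts of Slc15a1, 57 at most per kidney, limit it most.

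With the replicate number as a block, 6 genes were called in males, 0 in females, 5 between the controls, 1 between cKOm and cKOf and 4 for the interaction. The share of all genes called in that fit is not given. Dpp4 in females then had 0.30 (edgeR adjusted p = 0.099). Deviations of the 24 same-numbered pairs correlated at -0.20 to 0.12. No strong pairing by number was seen, and a weak shared effect could go unseen in this measure.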
